A study of Mus musculus with 8 samples.

Results

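The genes described here encode the proteins of the cytoplasmic ribosome. They were chosen by symbol, as Rps genes and Rpsa for the small subunit (32 genes) and as Rpl genes with the stalk genes Rplp0, Rplp1 and Rplp2 for the large subunit (45 genes). Ribosomal S6 kinases and named pseudogenes were left out. This gave 77 of the 17893 genes listed for both cell populations. Poly(A) RNA was sequenced from flow-sorted mouse bone marrow cells of the strain that the labels call CD57BL/6, in 4 groups of 2 libraries: Tet1 knockout (KO) long-term hematopoietic stem cells (LT-HSC), wild-type (WT) LT-HSC, Tet1 KO multipotent progenitors (MPP) and WT MPP. All groups came from mice 20 weeks after a transplant of KO or WT marrow, an age of 6 months is given for the mice, and each library was made from 10000 LT-HSC or 100000 MPP. LT-HSC are the rare cells that can rebuild blood for life, MPP are their short-lived offspring, and the Tet1 product converts methylated cytosine in DNA into its hydroxymethyl form. The labels number the libraries of each group 1 and 2. Whether they came from separate mice is not said. The p-values below therefore reflect the spread between libraries, which may be technical.

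Each ribosome carries 1 copy of nearly every one of these proteins, so their genes are usually expressed together and at high levels. Their mRNAs belong to the TOP mRNAs, which begin with a C followed by a run of pyrimidines (C or T in DNA), a start through which mTOR signalling through LARP1 sets how much of them is translated. In blood formation the family is known through Diamond-Blackfan anaemia and the 5q- syndrome, in which a reduced dose of 1 ribosomal protein blocks red cell production. Adult blood stem cells are known for a low rate of protein synthesis compared with progenitors. Many of these genes also have processed pseudogenes, intronless copies of their mRNAs scattered over the genome, and short reads can match parent and copy alike.

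Of 66 mouse RefSeq start entries that belong to 56 of the 77 genes, 11 (16.7%) began with a C and at least 4 pyrimidines at the annotated first base, on the transcript's strand, against 823 of 32851 entries of all genes (2.51%). An annotated start can lie some bases from the one a cell uses, so an entry without this run says only that these letters are not at that base. The following 5 are shown because these genes come back in the comparison of KO with WT LT-HSC, some on the higher side and some on the lower. Rps10, whose entry also has such a run, comes back there on the lower side and is not shown. Each line gives 15 bases before and 15 bases from the RefSeq start, read 5′ to 3′ in the direction of the gene, and capitals mark the C and its run of pyrimidines.
Rpl15: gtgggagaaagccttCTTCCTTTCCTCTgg
Rpl28: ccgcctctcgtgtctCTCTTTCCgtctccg
Rpl38: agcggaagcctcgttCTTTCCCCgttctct
Rps6: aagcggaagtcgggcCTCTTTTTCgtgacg
Rps21: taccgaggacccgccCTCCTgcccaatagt
On GRCm38.p6 these lie at chr14:18270972-18271001 on the minus strand (Rpl15), chr7:4792950-4792979 on the plus strand (Rpl28), chr11:114668565-114668594 on the plus strand (Rpl38), chr4:86857353-86857382 on the minus strand (Rps6) and chr2:180257364-180257393 on the plus strand (Rps21).

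The coding sequences show how closely a pseudogene can match. The next 60-base windows are from the middle of the coding sequence in GENCODE M21 and are shown because reads of 50 bp decide the counts. The Rplp0 window (coding bases 446 to 505, gene on chromosome 5) was found without a mismatch in the processed pseudogene Gm9625 on chromosome 13. In all, 6 genes other than Rplp0, Gm9625 among them, held it within 6 mismatches. The Rps20 window (coding bases 149 to 208, chromosome 4) was found without a mismatch in Gm4332 on chromosome 3. Here 7 genes other than Rps20, Gm4332 among them, held it within 6 mismatches. Genes of 1 chromosome were left out of this search.
Rplp0 and Gm9625: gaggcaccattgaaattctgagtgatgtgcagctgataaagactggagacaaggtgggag
Rps20 and Gm4332: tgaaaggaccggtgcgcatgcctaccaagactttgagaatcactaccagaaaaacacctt
Over whole transcripts, 75 of the 77 genes (97.4%) shared at least 1 exact 50-base window with another gene, and a median of 34.5% of their windows were shared, while 38.9% of 15591 other genes shared any and their median was 0%. How the authors' counting treated such reads is not stated, so every count below can hold reads of a copy or lack reads given to one. Rps28 and Rpl12 are among 12 of these genes whose listed span overlaps another listed gene, Kank3 and Lrsam1 on the opposite strand, and use of strand in the counting is not stated either.

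Total counts per library were 5059917 and 5356505 in LT-HSC KO, 4976459 and 5479731 in LT-HSC WT, 12400764 and 12504581 in MPP KO and 12030265 and 11928659 in MPP WT, with number 2 before number 1 here and below. LT-HSC markers were higher in WT LT-HSC than in WT MPP for 7 of 9 genes and MPP markers lower for 5 of 5. Tet1 itself had 379 and 336 counts in LT-HSC KO and 428 and 332 in LT-HSC WT, with a log2 fold change of -0.09 ± 0.19 (SE) and an adjusted p of 0.765 in edgeR's quasi-likelihood test. In MPP it had 855 and 765 counts in KO and 1323 and 1207 in WT (-0.62 ± 0.09, adjusted p = 0.0282). Counts over the whole gene need not drop where part of it is deleted, so this does not check the labels. The Y-linked gene Eif2s3y had 2 and 1 counts in LT-HSC KO, 200 and 158 in LT-HSC WT, 3 and 10 in MPP KO and 397 and 368 in MPP WT, and the Y-linked genes Ddx3y, Kdm5d and Uty were likewise below all WT libraries of the population in both its KO libraries. Genotype and sex of the cells cannot be told apart. The LT-HSC KO libraries stood apart: 3 predicted genes, Gm16869, Gm10800 and Gm10801, chosen after their values were seen, took 9.87% and 7.68% of their counts, against 0.213% and 0.181% in LT-HSC WT and at most 0.00574% in MPP.

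Ribosomal protein genes took 1.21% and 0.997% of all counts in the LT-HSC KO libraries and 1.36% and 1.04% in the LT-HSC WT libraries. In MPP they took 1.12% and 0.868% in KO and 1.21% and 0.934% in WT. The group means were 1.11 ± 0.154% in LT-HSC KO, 1.2 ± 0.221% in LT-HSC WT, 0.995 ± 0.180% in MPP KO and 1.07 ± 0.197% in MPP WT (SD, n = 2 each). Each difference between these means was smaller than the gap between the libraries within a group, which is a gap between library numbers. Within each number, the share of all counts was lower in KO than in WT in both populations. It was also higher in LT-HSC than in MPP for both genotypes. No test was run on these shares. The Wilson 95% interval of number 2 of LT-HSC WT ran from 1.35% to 1.37%, and such intervals cover counting error only. Without the 20 most abundant other genes in the denominator, the LT-HSC KO mean was 1.27%. Those genes took 13.5% and 12.2% of counts in LT-HSC KO and 6.06% and 6.63% in LT-HSC WT. Leaving them out raises the WT mean too, so 1.27% is not to be set beside the 1.2% of LT-HSC WT. The WT mean rises less, since those genes took a smaller part of WT counts. The distance between 1.11% and 1.2% thus narrows on that denominator. Its WT mean, and the order of KO and WT within a number on it, are not given here. In bulk libraries fewer cells of a type and less RNA per cell cannot be told apart. In all 4 groups the library numbered 2 had the higher share. The named pseudogenes of the family did the opposite, with 0.836% and 0.955% of counts in LT-HSC KO, 0.939% and 1.01% in LT-HSC WT, 0.833% and 0.907% in MPP KO and 0.934% and 0.989% in MPP WT.

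**Figure D1:**
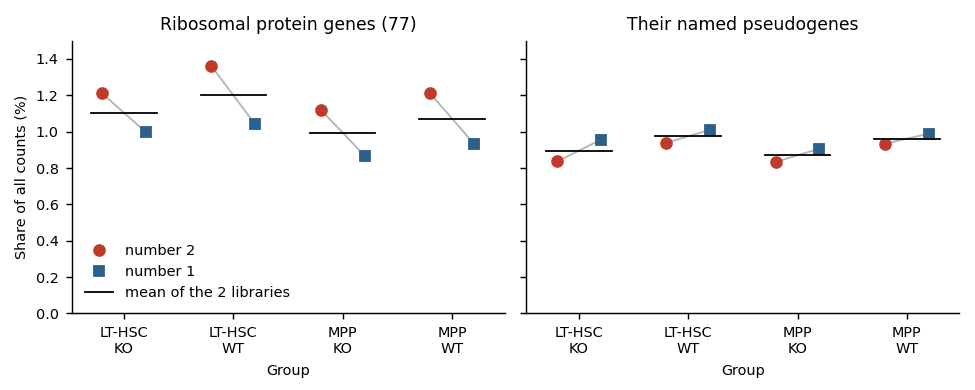
Share of all counts (%) taken by the 77 ribosomal protein genes (left) and by their named pseudogenes (right) in each of the 8 libraries; circles are libraries numbered 2, squares those numbered 1, grey lines join the libraries of a group and black bars are their means. The genes' share is higher in number 2 in every group, from 1.12% to 1.36% against 0.868% to 1.04%, and the pseudogenes' share is lower.

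The first comparison is therefore between the libraries numbered 2 and 1, with the 4 groups as covariates in 1 fit of all 8 libraries. It was chosen after seeing the data. In edgeR's quasi-likelihood test with Benjamini-Hochberg adjustment over 16551 genes, 60 of the 77 genes were higher in number 2 and 5 were lower, against 8.85% and 11.6% of all genes tested. The median log2 difference was 0.54 over the family and 0.03 over all genes tested. Leaving out both LT-HSC KO libraries gave 60 higher and 3 lower. A log2 difference of at least 1 was reached by 16 of the 77 genes upward and 1 downward, and by 4 and 4 of 4051 other genes with a mean log2 CPM above 6. By subunit, 24 of 32 small subunit genes were higher and 3 lower, and 36 of 45 large subunit genes were higher and 2 lower.

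Rpl32, a large subunit protein gene, had 1282 and 496 counts in LT-HSC KO, 1213 and 430 in LT-HSC WT, 2488 and 848 in MPP KO and 2428 and 839 in MPP WT. Every number 2 library was above the number 1 library of its group, and the difference was 1.52 ± 0.05 on the log2 scale (SE, adjusted p = 8.04e-11). Rps4x, the X-linked gene of a small subunit protein, had 290 and 93.5 CPM in LT-HSC KO, 307 and 93.1 CPM in LT-HSC WT, 245 and 101 CPM in MPP KO and 250 and 107 CPM in MPP WT. CPM are counts scaled to library size with the trimmed mean of M-values (TMM). The libraries of the 2 numbers did not overlap, and the log2 difference was 1.44 ± 0.07 (adjusted p = 7.33e-09). Of the other X-linked members, Rpl39 and Rpl36a were higher by 1.36 and 1.02, and Rpl10, whose protein joins the large subunit last, was at 0.02.

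Of the P proteins of the stalk, which recruits translation factors to the large subunit, Rplp1 was higher by 1.35 ± 0.05, Rplp2 by 1.27 and Rplp0 by 0.78 ± 0.05. Rpl12, at the base of the stalk, was at 0.14 ± 0.06 and was not called (adjusted p = 0.105). Gm9625, the pseudogene with the Rplp0 window shown above, had 278 and 305 CPM in LT-HSC KO, 250 and 281 CPM in LT-HSC WT, 313 and 344 CPM in MPP KO and 282 and 304 CPM in MPP WT, so its number 2 libraries were the lower ones in every group. Of the genes whose proteins travel with the 5S RNA or bind Mdm2, Rpl23 was higher by 1.04, Rpl11 by 0.54 and Rpl5 by 0.53. Rps14, the gene of the 5q- syndrome, was higher by 1.17 ± 0.07 (adjusted p = 4.19e-08). Rps19, the gene most often mutated in Diamond-Blackfan anaemia, differed by 0.21 ± 0.08 and missed the threshold (adjusted p = 0.0702). Of the 18 genes tested from the Diamond-Blackfan list, 15 were higher and 1, Rps20, was lower.

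Rps20 went against the family. It had 1881 and 4930 counts in LT-HSC KO, 2051 and 5272 in LT-HSC WT, 4140 and 7656 in MPP KO and 4868 and 8160 in MPP WT. All number 2 libraries were below their number 1 partners, with a log2 difference of -1.05 ± 0.08 (adjusted p = 3.94e-07). Rpl29 (-0.79 ± 0.07), Rpl8 (-0.28 ± 0.06) and Rps2 (-0.18 ± 0.05) also fell.

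Members were also grouped by the windows they share with other genes, as a description with no test. The 8 members with at most 10% of their 50-base windows shared (among them Rpl3l, Rpl24, Rps3, Rpl22, Rps15a, Rpl8 and Rps20) had a median log2 difference of -0.15, with 3 higher and 3 lower. The 49 members with 10% to 50% shared had a median of 0.61, with 42 higher and 1 lower, and the 13 with 50% to 75% and the 7 with over 75% had medians of 0.48 and 0.57. Spearman's rho between the share of windows and the log2 difference was 0.08 over the 77 genes, which share their libraries, and -0.64 over 88 named pseudogenes with a transcript. Of the 21 pseudogenes with over 75% of their windows shared, 0 were higher in number 2 and 15 were lower, and of the 7 with at most 10% shared, 4 were higher and 0 lower; over all 104 tested, 33 were higher and 32 lower.

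**Figure D2:**
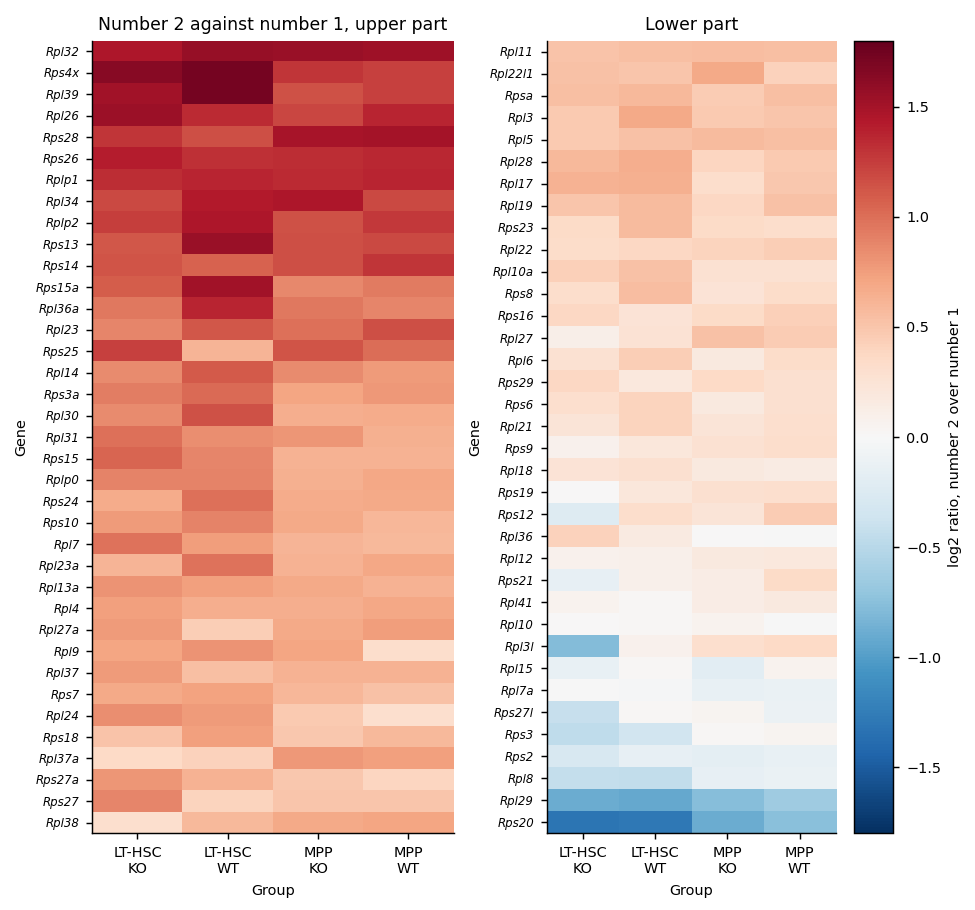
Log2 ratio of the library numbered 2 over the library numbered 1 (colour) for 73 of the 77 genes (rows, ordered by their mean, in 2 panels) in each of the 4 groups (columns). Rows keep their colour across the columns: 60 of the genes drawn are above 0 in all 4 groups and 5 are below 0 in all 4.

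The pattern was alike in the 4 groups. Of all 77 genes, 63 were higher in number 2 in all 4 groups and 6 were lower in all 4. Number 2 exceeded number 1 for 65 of 77 genes in LT-HSC KO, 70 in LT-HSC WT, 70 in MPP KO and 68 in MPP WT, with medians of 0.53, 0.59, 0.49 and 0.50. In the same comparison 9 of 20 tested genes of the list of translation factors and other TOP mRNAs were higher and 3 lower (median 0.15), 2 of 43 ribosome biogenesis genes were higher and 17 lower (median -0.17), and 1 of 13 RNA polymerase I genes was higher and 5 lower (median -0.13), beside the 8.85% and 11.6% of all genes. Beside these, 0 of 6 erythroid marker genes were higher in number 2 and 3 were lower, with a summed level of 1790 to 2710 CPM over the LT-HSC KO libraries, 300 to 486 CPM in LT-HSC WT, 467 to 613 CPM in MPP KO and 280 to 370 CPM in MPP WT. No erythroid marker was at 0 in any group. Of 4 megakaryocyte markers 3 were lower, Itga2b (-0.37), Pf4 (-0.24) and Vwf (-0.23), as were the stromal markers Col1a1 (-0.45) and Col1a2 (-0.44) of 8, the myeloid marker Lyz2 (-0.54) of 6 and 1 of 4 antibody-secreting markers, and 0 markers of these lists were higher. B lineage markers and the T and NK markers tested gave 0 calls. The part of these cells in the result was not tested. The labels do not say what the number stands for. Because it moved most of the family in every group, each comparison below is given without and with the number as a block. The blocked fit of 4 libraries leaves 1 residual degree of freedom per gene, against 3 in the fit of all 8 libraries.

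The KO and WT libraries were compared next, within each population. In LT-HSC, 0 of 76 tested members were higher in KO and 1, Rpl22, was lower, against 22.5% and 10.9% of 15684 genes, in edgeR's quasi-likelihood test; 2 members had an unadjusted p under 0.05 and DESeq2 called 0 lower and 0 higher. The family's median log2 fold change was -0.11, that of all genes tested 0.03 and that of genes with a mean log2 CPM above 6 was -0.18. When libraries were scaled on abundant genes only, all these medians moved up, to 0.06, 0.21 and 0.00, so the direction of the family's median depends on the scaling. That scaling called 3994 of all genes higher and 946 lower, against 3529 and 1717 with the usual scaling. The authors' deposited table, which has its own test, gives an FDR under 0.05 to 1 lower member, Rps28 (log2 fold change -0.86, FDR 0.031), and 1 higher member, Rpl3l, and gives Rpl22 an FDR of 0.163.

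Rpl22, a large subunit protein gene that matters for lymphocyte development in mice, had 594 and 499 counts in LT-HSC KO and 886 and 722 in LT-HSC WT, or 114 and 90.6 CPM against 171 and 132 CPM. Both KO libraries were below both WT libraries. The fold change on the log2 scale was -0.55 ± 0.18 (SE, adjusted p = 0.0458). The call was lost without either KO library, without number 2 of WT and when abundant genes set the scale. A fit with a library left out also unbalances the library numbers. In MPP, Rpl22 had 137 and 103 CPM in KO and 144 and 106 CPM in WT. Its paralog Rpl22l1 had 33.8 and 23.4 CPM in LT-HSC KO and 37.0 and 26.0 CPM in LT-HSC WT (-0.13 ± 0.26, adjusted p = 0.741). In MPP, Rpl22l1 had 26.8 and 16.6 CPM in KO and 28.6 and 21.4 CPM in WT.

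With the replicate number as a block, 5 of 76 members were higher and 15 were lower in LT-HSC KO, against 30.7% and 25.6% of all genes, so the share of members called was below that of all genes. With all 8 libraries and the block, 6 of 77 were higher and 17 lower, 23 in all, against 57.7% of all genes called in either direction. By subunit, 6 of 32 small and 9 of 44 large subunit genes were lower with the block, and 3 and 2 were higher. Within a number, 43 of the 77 genes were below 0 in both pairs of LT-HSC libraries and 14 above 0 in both, with medians of -0.12 for number 2 and -0.11 for number 1. The same count was not made over all genes. Genes with a mean log2 CPM above 6 had a more negative median than the family in the unblocked fit above. These counts therefore do not set the family apart. With 1 library left out of the unblocked fit, the family's median log2 fold change ran from -0.42 to 0.18. Each such fit unbalances the library numbers, between which most of the family differed. The range therefore cannot be read as dependence on a single library. The blocked fit was not run with libraries left out.

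Rps28, a small subunit protein gene, had 146 and 63 counts in LT-HSC KO and 259 and 121 in LT-HSC WT. The groups overlapped, since number 2 of KO was above number 1 of WT, but within each number KO was lower, and the log2 fold change was -0.86 ± 0.45 (adjusted p = 0.182) without and -0.87 ± 0.17 (adjusted p = 0.0003) with the block. Rplp0, which anchors the stalk, had 532 and 286 CPM in LT-HSC KO and 715 and 386 CPM in LT-HSC WT, -0.42 ± 0.32 (adjusted p = 0.367) without and -0.42 ± 0.06 (adjusted p = 5.03e-06) with it. The other stalk genes did not pass either fit, with Rplp1 at -0.06 and Rplp2 at 0.01 in the blocked one. Rpl27a (-0.44), Rpl11 (-0.39), Rps6 (-0.36), Rpl29 (-0.34), Rps10 (-0.31), Rps16 (-0.28), Rpl23 (-0.25), Rpl28 (-0.24), Rps3 (-0.22) and Rpl15 (-0.21) were also lower with the block. Of the 5S partners, Rpl5 stayed at 0.01 ± 0.09 (adjusted p = 0.937) while Rpl11 was lower.

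Rps21 also belongs to the small subunit, and its level was 53.4 and 59.0 CPM in LT-HSC KO and 41.4 and 38.7 CPM in LT-HSC WT. Both KO libraries were above both WT libraries, with a log2 fold change of 0.50 ± 0.18 that missed the threshold without the block (adjusted p = 0.0676) and 0.50 ± 0.13 with it (adjusted p = 0.00305). Rpl38, known in mice for its role in translating Hox mRNAs, had 32.1 and 26.0 CPM in KO and 26.2 and 17.4 CPM in WT, overlapping groups, at 0.44 ± 0.18 with the block (adjusted p = 0.0443). Rps2 (0.26) and Rpl3 (0.23) were higher with the block as well. Of the 5 genes whose start is shown above, Rps21 and Rpl38 were thus higher and Rpl15, Rpl28 and Rps6 lower in KO LT-HSC in that fit. Rps10, whose start has such a run but is not shown, was lower as well. The 5 were picked because they were called, so their calls are no result about such starts. In all, 11 members have such an entry, among them Rplp2, which was not called in that fit.

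Rpl3l, a paralog of Rpl3 whose protein replaces it in muscle in mice, was read in few fragments. It had 8 and 15 counts in LT-HSC KO and 0 and 0 in LT-HSC WT and was left out of the 4-library fit by its low counts. Taking 3 counts over the group as the floor, it was at least 7.62-fold higher in KO. MPP KO libraries held 15 and 12 of its reads as counts, and MPP WT libraries 4 and 3. The change was 1.93 ± 0.44 on the log2 scale (adjusted p = 0.0681) without and 1.93 ± 0.52 (adjusted p = 0.00113) with the block, and its partner Rpl3 was higher by 0.23 in LT-HSC and 0.15 in MPP with the block.

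Marker genes moved with these libraries. The LT-HSC markers summed to 1120 to 1130 CPM in LT-HSC KO and 1490 to 1510 CPM in LT-HSC WT. The MPP markers summed to 284 to 287 CPM in LT-HSC KO and 414 CPM in LT-HSC WT. Markers of other cells moved too. All 6 erythroid markers were higher in LT-HSC KO, where their summed level was 1790 to 2710 CPM, against 300 to 486 CPM in LT-HSC WT, and none was at 0. Of 8 endothelial and stromal markers 6 were higher (505 to 678 CPM against 97.1 to 99.2 CPM, with Cxcl12 at 0 in WT), and 4 of 4 megakaryocyte markers were lower (411 to 477 CPM against 1010 to 1260 CPM). Both T and NK markers tested were lower (8.35 to 8.64 CPM in KO, 67.7 to 68.4 CPM in WT; Cd3d and Cd3e were not analysed here), and of 4 antibody-secreting markers 1 was higher and 2 were lower (115 to 123 CPM in KO, 238 to 273 CPM in WT). Of 5 granulocyte and monocyte markers tested 4 were higher and 1, Lyz2, lower (97.3 to 137 CPM summed over the list of 6 in KO, 128 to 228 CPM in WT, with Ngp and S100a8 at 0 in WT), and of 5 B lineage markers 3 were higher and 1 lower (57.9 to 58.7 CPM in KO, 36.8 to 40.0 CPM in WT). Their part in the values of the family was not tested.

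**Figure D3:**
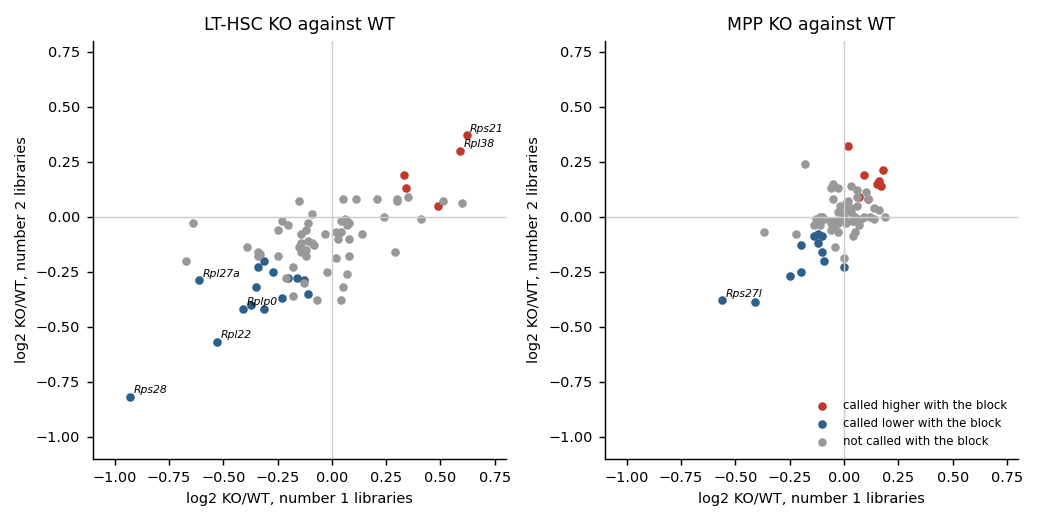
Log2 ratio of KO over WT for each ribosomal protein gene in the libraries numbered 1 (horizontal axis) and numbered 2 (vertical axis), in LT-HSC (left) and MPP (right), without Rpl3l; red points were called higher, blue points lower and grey points not called with the replicate number as a block. Rps28 and Rpl22 lie lowest and Rps21 and Rpl38 highest in LT-HSC; in MPP nearly all genes lie close to 0 and Rps27l and Rpl30 lie lowest.

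In MPP, 0 of 77 members were higher and 0 lower in KO in edgeR's test, against 4.74% and 2.46% of 14902 genes; 2 members had an unadjusted p under 0.05 and DESeq2 called 0. The median log2 fold change was 0.00 for the family and -0.01 for all genes tested. The authors' deposited table gives an FDR under 0.05 to Rpl3l alone among the members (log2 fold change 2.11, FDR 0.00846). With the block, 9 members were higher and 12 lower, against 23.7% and 24.8% of all genes, but with all 8 libraries and the block 1 was higher and 3 lower, 4 of 77 against 15.0% of all genes called in either direction. Those 4 were Rpl3l, Rps27l, Rpl30 and Rplp0. Marker genes moved here too. Of 4 antibody-secreting markers 3 were higher and 0 lower, with a summed level of 5040 to 6770 CPM in MPP KO and 2350 to 2820 CPM in MPP WT. Also higher in MPP KO were 4 of 6 granulocyte and monocyte markers (1700 to 1710 CPM summed in KO, 862 to 873 CPM in WT), 3 of 6 erythroid markers (467 to 613 CPM in KO, 280 to 370 CPM in WT), 1 of 5 B lineage markers (485 to 488 CPM in KO, 368 to 375 CPM in WT) and 2 of 5 endothelial and stromal markers tested (177 to 187 CPM in KO, 180 to 181 CPM in WT, summed over the list of 8). None of these lists had a marker called lower or at 0, and the 4 megakaryocyte and 4 T and NK markers gave 0 calls. Their part in the values of the family was not tested.

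Rps27l, a paralog of Rps27 known as a p53 target, had 18.4 and 17.8 CPM in MPP KO and 24.4 and 26.2 CPM in MPP WT. Both KO libraries were below both WT libraries, with a log2 fold change of -0.47 ± 0.10 (adjusted p = 0.0600) and of -0.48 ± 0.13 (adjusted p = 0.0249) in the 8-library fit with the block. In LT-HSC it had 16.5 and 22.0 CPM in KO and 18.5 and 18.2 CPM in WT. Its partner Rps27 had 29.2 and 20.7 CPM in MPP KO and 25.6 and 18.1 CPM in MPP WT (0.20 ± 0.24, adjusted p = 0.667). Rpl30 had 30.9 and 19.7 CPM in MPP KO and 41.0 and 25.9 CPM in MPP WT, overlapping groups, and was lower, at -0.41 ± 0.13 (adjusted p = 0.0434) in the 8-library fit with the block. Rplp0 had 573 and 366 CPM in MPP KO and 701 and 431 CPM in MPP WT, at -0.26 ± 0.31 (adjusted p = 0.656) without the block and -0.26 ± 0.07 (adjusted p = 0.0252) in that fit. It was the 1 member called lower in both populations there, out of 17 called lower in LT-HSC and 3 in MPP. In the separate blocked fits 4 members were lower in both, Rpl15, Rpl28, Rplp0 and Rps3, of 15 and 12. In those fits 1, Rpl3, was higher in both, of 5 and 9. LT-HSC and MPP share no libraries, and the overlap of calls over all genes was not counted.

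**Figure D4:**
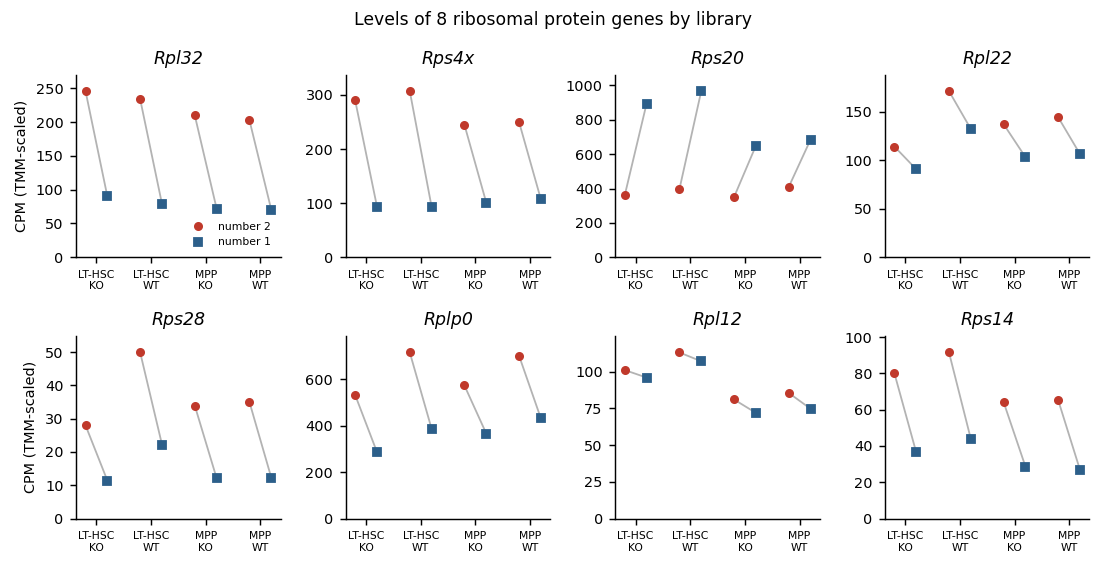
Level (CPM, TMM-scaled, linear axes from 0) of 8 ribosomal protein genes in each library; circles are libraries numbered 2, squares those numbered 1, and grey lines join the libraries of a group. Rpl32, Rps4x and Rps14 split by library number and Rps20 splits the other way, Rpl22 and Rps28 are lowest in LT-HSC KO within each number, and Rpl12 is higher in both LT-HSC groups than in both MPP groups.

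The difference between the KO over WT changes of the 2 populations was tested as an interaction. It was called for 0 members in either direction, against 13.6% of 16551 genes higher and 8.5% lower, where 1 member had an unadjusted p under 0.05 and DESeq2 called 0. With the block 2 members were higher and 8 lower, against 22.0% and 19.8% of all genes. Rps28 (-0.85 ± 0.20, adjusted p = 0.00365) and Rpl22 (-0.51 ± 0.10, adjusted p = 0.00148) were among the 8, so their log2 fold changes were more negative in LT-HSC than in MPP. Rps27 (-0.60), Rpl21 (-0.44), Rpl27a and Rpl11 (-0.43 each), Rps6 (-0.40) and Rps16 (-0.31) were the others, and Rps2 was higher (0.26 ± 0.10, adjusted p = 0.0422), as was Rpl3l.

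Genes that build or regulate ribosomes were described beside the family. Among 43 ribosome biogenesis genes tested in LT-HSC, 3 were higher and 1 lower in KO (median 0.04), below the 22.5% and 10.9% of all genes called higher and lower. Nmd3, the export adaptor of the large subunit, had 248 and 274 counts in KO and 159 and 162 in WT (0.70 ± 0.19, adjusted p = 0.0222), and Gnl2, a nucleolar GTPase, 558 and 626 counts against 393 and 411 (0.56 ± 0.16, adjusted p = 0.0264). Nop16 was lower, with 88 and 141 counts against 191 and 338 (-1.20 ± 0.32, adjusted p = 0.0212). In MPP, 0 were higher and 2 lower, Nop16 (-0.62 ± 0.12, adjusted p = 0.0447) and Nob1, which matures the small subunit RNA (-0.45 ± 0.08, adjusted p = 0.0413), beside 2.46% of all genes lower. Under the block 0 were higher and 18 lower, beside 23.7% and 24.8% of all genes. Of 13 RNA polymerase I genes 2 were higher in LT-HSC KO, the 2 largest subunits Polr1a (0.63 ± 0.18, adjusted p = 0.0258) and Polr1b (0.54 ± 0.17, adjusted p = 0.0369), and 0 in MPP KO, beside 22.5% and 4.74% of all genes. In LT-HSC the calls of Nmd3 and Polr1a were lost without either KO library, that of Polr1a also without number 2 of WT, that of Nop16 without number 2 of KO, and those of Gnl2 and Polr1b with any 1 library left out.

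Among 20 translation factors and other TOP mRNAs, 1 was higher and 1 lower in LT-HSC KO, beside 22.5% and 10.9% of all genes. Under the block 2 were higher and 11 lower, beside 30.7% and 25.6% of all genes, and the median of -0.20 was close to the -0.18 of all genes with a mean log2 CPM above 6. Pabpc4, a poly(A)-binding protein gene, was the higher one (0.64 ± 0.16, adjusted p = 0.0150) and Eif3h, an initiation factor gene, the lower (-0.86 ± 0.20, adjusted p = 0.0112). Pabpc4 was lost without either KO library and Eif3h without number 1 of KO. In MPP KO, Nap1l1, a histone chaperone gene with a TOP mRNA, was lower (-0.37 ± 0.07, adjusted p = 0.0483), the 1 call there without the block. Under the block 1 was higher and 12 lower, beside 23.7% and 24.8% of all genes, with a median of -0.07 beside -0.03 for genes with a mean log2 CPM above 6.

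Of 21 Myc and mTOR regulators tested in LT-HSC, 0 were higher and 2 lower, beside 22.5% and 10.9% of all genes, and of 22 in MPP 3 were higher and 0 lower, beside 4.74% and 2.46%. Mycn, a Myc family activator of ribosome genes, had 223 and 228 counts in LT-HSC KO and 391 and 330 in LT-HSC WT. MPP KO libraries had 217 and 233 counts of it, and MPP WT libraries 104 and 117. The groups did not overlap in either population and moved opposite ways, by -0.67 ± 0.18 in LT-HSC (adjusted p = 0.0223) and 1.05 ± 0.12 in MPP (adjusted p = 0.0155), an interaction of -1.73 ± 0.22 (adjusted p = 0.0028) that was called with each of the 8 libraries left out in turn. Mxd4, a Myc antagonist, went the same ways (-0.56 ± 0.18, adjusted p = 0.0452, and 0.33 ± 0.06, adjusted p = 0.0477), and Rptor, a subunit of mTOR complex 1, was higher in MPP KO (0.36 ± 0.07, adjusted p = 0.0431). Of 5 genes of the p53 branch, 2 were lower in LT-HSC KO and 1 in MPP KO, beside 10.9% and 2.46% of all genes. Cdkn1a, the p53 target that blocks the cell cycle, had 418 and 351 counts in LT-HSC KO and 1572 and 1359 in LT-HSC WT (-1.93 ± 0.18, adjusted p = 0.000267), and in MPP 1836 and 1735 in KO against 2754 and 2691 in WT (-0.59 ± 0.07, adjusted p = 0.0157). Mdm2, the p53 inhibitor that Rpl5 and Rpl11 bind, was lower in LT-HSC KO (-0.60 ± 0.16, adjusted p = 0.0199). When abundant genes set the scale, the LT-HSC calls of Mycn, Mxd4 and Mdm2 were lost. These calls were also lost without either KO library and, for Mxd4, without number 2 of WT. In MPP each of the calls named here for Mycn, Mxd4, Rptor, Cdkn1a, Nop16, Nob1 and Nap1l1 was lost with any 1 library left out. Such a fit has only 1 library in a group, and how many of all genes keep a call in it was not counted. The losses are therefore no result about these genes.

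The populations were compared in the WT libraries. Population cannot be told apart here from cells per library (10000 LT-HSC, 100000 MPP) or from the lower total counts in LT-HSC. In WT LT-HSC against WT MPP, 1 of 76 members was higher, Rpl12, and 0 were lower, against 17.4% and 16.9% of 14660 genes, and DESeq2 gave the same count. The median log2 fold change was 0.17 for the family and 0.02 for all genes tested, and -0.18 for the family without number 2 of WT LT-HSC. Rpl12, whose protein sits at the base of the stalk, had 113 and 107 CPM in WT LT-HSC and 85.5 and 74.7 CPM in WT MPP. Both LT-HSC libraries were above both MPP libraries (0.51 ± 0.13, adjusted p = 0.0293), and the call was lost without either MPP library. Each fit with a library left out, here and for the median above, also unbalances the library numbers.

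With the block 19 members were higher in WT LT-HSC and 2 lower, against 27.5% and 25.8% of all genes, and with all 8 libraries and the block 22 were higher and 7 lower, 29 of 77 against 56.1% of all genes called in either direction. By subunit, 13 of 44 large and 6 of 32 small subunit genes were higher with the block. Rpl37a, a large subunit protein gene, had 56.8 and 42.5 CPM in WT LT-HSC and 38.9 and 23.2 CPM in WT MPP, so that both LT-HSC libraries were above both MPP libraries. Its log2 fold change was 0.72 ± 0.28 (adjusted p = 0.0911) without and 0.75 ± 0.16 (adjusted p = 2.04e-05) with the block. Rps14 had 91.5 and 43.8 CPM in WT LT-HSC and 65.1 and 26.6 CPM in WT MPP, overlapping groups, at 0.60 ± 0.48 (adjusted p = 0.370) without and 0.64 ± 0.15 (adjusted p = 4.25e-05) with it. Rps28 (0.70) and Rpl27 (0.53) were also among the higher ones.

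Rps15a and Rpl7 went the other way. Rps15a had 83.4 and 29.3 CPM in WT LT-HSC and 100 and 52.2 CPM in WT MPP (-0.46 ± 0.14 with the block, adjusted p = 0.0026), and Rpl7 had 221 and 131 CPM against 278 and 185 CPM (-0.36 ± 0.12, adjusted p = 0.00569). Neither was called without the block. Rps27l was at 18.5 and 18.2 CPM in WT LT-HSC and 24.4 and 26.2 CPM in WT MPP, groups that did not overlap, and was lower in the 8-library fit with the block (-0.46 ± 0.15, adjusted p = 0.0167) but not in the 4-library fits. Rps19 had 46.6 and 40.3 CPM in WT LT-HSC and 43.4 and 35.3 CPM in WT MPP, a log2 fold change of 0.20 ± 0.17 (adjusted p = 0.408). Of the 15 members lower in LT-HSC KO with the block, 10 were also among the 19 higher in WT LT-HSC than in WT MPP. Both comparisons use the WT LT-HSC libraries, on opposite sides, so their spread alone can give such overlap for any gene. The overlap over all genes was not counted, so the 10 are no result about the family.

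**Figure D5:**
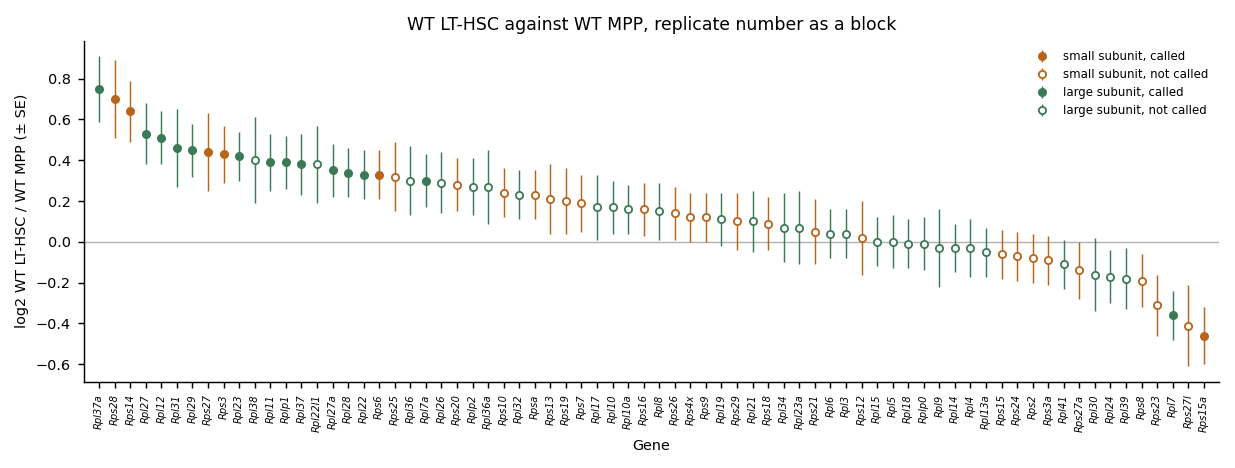
Log2 fold change of WT LT-HSC over WT MPP (± SE) for 72 of the 76 ribosomal protein genes tested, ordered from high to low, from the fit of 4 WT libraries with the replicate number as a block; filled points were called at an adjusted p under 0.05. Values run from 0.75 for Rpl37a to -0.46 for Rps15a, with 18 of the genes drawn called higher and 2 lower.

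Around the family, 1 of 43 ribosome biogenesis genes was higher in WT LT-HSC and 6 were lower, both shares below the 17.4% and 16.9% of all genes. Nle1, whose product matures the large subunit and is needed by blood stem cells in mice, had 198 and 294 counts in WT LT-HSC and 197 and 258 in WT MPP, from totals that were lower in LT-HSC (1.33 ± 0.24, adjusted p = 0.0099). Mphosph10 (-1.03 ± 0.19, adjusted p = 0.0103) and Nmd3 (-0.82 ± 0.14, adjusted p = 0.00753) were lower, and the call of Nmd3 was lost without either MPP library. Of 13 RNA polymerase I genes 0 were higher and 3 lower, Twistnb (-0.80), Taf1d (-0.55) and Polr1b (-0.49), beside 17.4% and 16.9% of all genes. All 3 calls were lost without number 2 of MPP. Those of Taf1d and Polr1b were also lost without number 1 of MPP, and that of Taf1d without number 1 of WT LT-HSC. Of 20 translation factors and other TOP mRNAs 0 were higher and 0 lower, against the same shares of all genes. Mycn was higher in WT LT-HSC (2.92 ± 0.18, adjusted p = 0.000224) and its relative Mycl1 lower (-3.21 ± 0.51, adjusted p = 0.00626), while Eif4ebp1, a translation repressor under mTOR, was higher (0.92 ± 0.15, adjusted p = 0.00756). Markers of other cells moved with this comparison. In WT LT-HSC 5 of 5 B lineage markers (36.8 to 40.0 CPM, 368 to 375 CPM in WT MPP) and 5 of 6 granulocyte and monocyte markers (128 to 228 CPM, 862 to 873 CPM in WT MPP, with Ngp and S100a8 at 0 in WT LT-HSC) were lower. All 4 antibody-secreting markers were lower too (238 to 273 CPM, 2350 to 2820 CPM in WT MPP). All 4 megakaryocyte markers were higher (1010 to 1260 CPM, 102 to 124 CPM in WT MPP), and the part of these markers in the values of the family was not tested.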

How the data were processed

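RNA was measured in 8 libraries from mouse bone marrow by poly(A) selection and paired-end sequencing of 50 bp reads, per the labels' protocols. The submitters' processing notes name CASAVA, TopHat and the mm9 build. For the counter, its handling of reads with several matches and the annotation, the sources used here give nothing. The authors deposited 1 table per population with raw counts per gene and library, and their own log2 fold changes, p-values, FDR and a likelihood ratio score, which was not used, of KO over WT; 0 columns were left unmatched to a sample. Depth was 4976459 to 12504581 counts per library, and 3 counts equal 0.547 to 0.603 CPM in LT-HSC and 0.24 to 0.251 CPM in MPP.

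The counts were fitted over all genes with edgeR 4.0.16 in R 4.3.3 (filterByExpr, TMM, quasi-likelihood test, Benjamini-Hochberg adjusted p under 0.05), after a check on simulated data; DESeq2 1.42.0, other scalings, no filter, left-out libraries and the replicate number as a block were alternatives. Standard errors were derived as the absolute log2 fold change over the root of edgeR's F. CPM are counts over the TMM-scaled library size of the 8-library fit. The replicate numbers come from the titles. They were taken to pair the libraries because the number 2 over number 1 log2 ratios of the 4 groups correlated in all 6 pairs, at 0.552 to 0.849 over 9219 genes with a mean log2 CPM above 4 and 0.893 to 0.974 over the 77 members.

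Shared windows were exact 50-base matches between GENCODE M21 transcripts of different genes; start sequences are from RefSeq on GRCm38.p6. Members and lists were chosen with earlier results of these data known. Named members were those called (up to 12), the 3 highest and 3 lowest with at least 50 mean normalized counts, paralogs, stalk, Rpl5, Rpl11, Rps19, Rps14 and X-linked genes, and at most 3 called genes per list; members of the comparison of library numbers and those called only with the block were chosen after their values were seen. Counts and medians cover all 77 members; a few members are not reported here by name.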

Additional observations from a re-analysis of the deposited data

Results flagged for a closer look

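The KO over WT change in LT-HSC minus that in MPP was tested as an interaction on the log2 scale. With the replicate number as a block it was called for Rps28 (-0.85), Rps27 (-0.60), Rpl22 (-0.51), Rpl21 (-0.44), Rpl27a (-0.43), Rpl11 (-0.43), Rps6 (-0.40) and Rps16 (-0.31), whose change was more negative in LT-HSC. It was also called for Rps2 (0.26) and Rpl3l (5.30), whose change was more positive there. The value of Rpl3l depends on the prior count, since both WT LT-HSC libraries are at 0, and is no bound. None of the 10 passed without the block.

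Among the genes around the family the interaction passed without the block for Mycn (-1.73), Cdkn1a (-1.35), Mxd4 (-0.89) and Mdm2 (-0.71), with a more negative change in LT-HSC. It also passed for Nmd3 (0.88), Pabpc4 (0.80), Polr1a (0.73), Polr1b (0.71) and Gnl2 (0.60), with a more positive one. Mycn and Cdkn1a were called with any 1 of the 8 libraries left out, and the other 7 were lost without number 2 of MPP WT. Of these 7, only Nmd3 and Pabpc4 kept their call with each of the other libraries left out. Gnl2, Polr1a, Polr1b, Mxd4 and Mdm2 were also lost without several others.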

How the results depend on the processing

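In LT-HSC KO against WT, members called higher and lower numbered 1 and 0 with scaling on abundant genes, 1 and 0 without a low-count filter, 0 and 0 in DESeq2, 2 and 0 with all 8 libraries in 1 fit, 5 and 15 with the replicate block, and 6 and 17 with 8 libraries and the block; leaving out single libraries gave 0 to 13 and 0 to 18. In MPP the block gave 9 and 12, and 1 and 3 with 8 libraries, where leaving out libraries gave 0. In WT LT-HSC against WT MPP the counts were 0 higher without a filter, 19 and 2 with the block, and 22 and 7 with 8 libraries, with 1 to 12 and 0 to 2 when single libraries were left out. The interaction gave 2 and 8 with the block. Lower members in number 2 against number 1 were 3 without LT-HSC KO. The fits of 8 libraries with the block and all fits of the library numbers were chosen after seeing the data.

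Leaving out single libraries gave family medians of -0.42 to 0.18 in LT-HSC, -0.28 to 0.26 in MPP, -0.18 to 0.40 between the WT populations and -0.45 to 0.28 for the interaction, since each such fit unbalances the numbers. The median was 0.06 in LT-HSC and 0.04 for the interaction with scaling on abundant genes. In LT-HSC, a gene's call with the opposite sign appeared with 1 library left out for Rpl39 (-1.04 to 0.90), Rplp1 (-0.83 to 0.71), Rplp2 (-0.72 to 0.82), Rps20 (-0.94 to 0.69) and Rps4x (-1.03 to 0.99). With pseudogenes added the mean share of counts was 2.00% in LT-HSC KO, 2.18% in LT-HSC WT, 1.87% in MPP KO and 2.03% in MPP WT. Without the 20 most abundant other genes it was 1.27% in LT-HSC KO, which is not comparable with a WT mean that includes those genes. In the same order of groups, the share in single libraries ran from 0.997% to 1.21%, 1.04% to 1.36%, 0.868% to 1.12% and 0.934% to 1.21%. RLE scaling, and TMM without the family, changed none of these counts by more than 1.5 times.

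Depth limits Rpl3l, at 0 to 15 counts per library.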
